A study of Mus musculus with 8 samples.

Results

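Mycn and Myc, 2 of the 22056 genes in the deposited tables, were examined in tumour cells of a mouse small cell lung cancer line grown at 3 sites. The genes were found by symbol (Mycn, ENSMUSG00000037169; Myc, ENSMUSG00000022346), and their levels played no part in choosing cells or samples. The line, N2N1G, carries an eGFP reporter transcript and had been cultured in RPMI-1640 with serum. The grafted tumours were taken 3 weeks after transplantation, dissociated, and sorted by flow cytometry for live cells, from which 10x Genomics 3' libraries were made. The 8 libraries comprised 2 brain allografts and 3 subcutaneous allografts, both started by direct injection, and 3 liver allografts started through the tail vein, so liver site and route cannot be told apart. All groups share the same line, with no treatment named. The genotype of the line and the strain and age of the hosts are not given in the sources used here. The labels number the allografts within a site without saying that each came from its own mouse, so p-values measure the spread between these libraries, which may be partly technical. By its title, the study asks how neuron-like traits bear on growth in the brain.

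Mycn and Myc encode closely related transcription factors of the MYC family, whose other member is Mycl. Each binds DNA at E-box sequences as a dimer with Max and promotes genes of ribosome biogenesis, metabolism and cell division. Proteins of the Mxd group, Mnt and Mga compete for Max. In human small cell lung cancer the family genes are recurrently amplified, usually not together in the same tumour, and Mycl is linked to the neuroendocrine form of the disease.

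Over the whole series, 38460 cells with 372293350 UMIs (unique molecular identifiers, counts of captured RNA molecules) were listed, with 27140735 to 63049542 UMIs per library. After filters on genes per cell and mitochondrial share, 36797 cells remained. Tumour cells were those in which eGFP and Mycl together made up at least 0.2% of the UMIs, which gave 34719 cells, 2418 and 4060 from brain, 4114, 4189 and 4720 from liver, and 4150, 6276 and 4792 from subcutaneous tissue. In the clusters that lay mostly inside this gate, 8 to 12 of 12 tumour cell markers were found in at least 20% of cells. The marker list holds Chga and Chgb and also the eGFP and Mycl of the gate. Clusters mostly outside the gate had 2 to 9 of these markers, with 9 in a cluster of 75 cells led by S100a8. The ranges overlap, so the marker count alone does not set tumour clusters apart. Median depth was 7971.5 to 10542 UMIs per cell between libraries. Just outside the gate (0.15% to 0.2%), 231 cells held Mycn at 23.7 and Myc at 4.90 CPM (UMIs of the gene per 1000000 UMIs), and just inside it (0.2% to 0.25%), 282 cells held 32.2 and 9.54. Of 37556 distinct cell barcodes, 882 occurred in more than 1 library, and brain replicate 1 stood apart in that tumour cells were 71.6% of its filtered cells, against 92.0% to 98.9% in the other 7.

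Mycn lies on the minus strand at chr12:12936093-12941914 and Myc on the plus strand at chr15:61985391-61990374 (GRCm38, GENCODE M21), both as protein-coding genes. The 172 bases directly upstream of the annotated start of Mycn, at chr12:12941915-12942086 on the minus strand, are shown because the gene differed between sites. They are from RefSeq's promoter table (GRCm38.p6), read 5′ to 3′, and the capitals mark 2 copies of TTTGGCGC, the letters of an E2F-type motif.
Mycn: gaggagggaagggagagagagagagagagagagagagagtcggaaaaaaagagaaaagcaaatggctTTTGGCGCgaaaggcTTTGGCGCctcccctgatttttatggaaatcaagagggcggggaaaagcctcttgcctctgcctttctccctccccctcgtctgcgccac
Both strands were searched, and the motif was found in 87 of 32851 mouse promoter windows of the same length and position (0.265%). The E-box CACGTG occurred in 1128 of these windows (3.43%) and not in that of Mycn. A match of letters is a description of the window and does not show binding.

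Mycn was lower in liver tumour cells than at either other site. In the brain libraries it was counted at 712 and 1152 UMIs, or 32.8 and 29.8 CPM of the summed tumour cells. In the liver libraries it was counted at 592, 531 and 633 UMIs, or 11.99, 11.1 and 13.7 CPM. In the subcutaneous libraries it was counted at 1473, 1465 and 1178 UMIs, or 35.3, 23.6 and 22.7 CPM. All 3 liver libraries lay below the other 5, while brain and subcutaneous libraries overlapped, since subcutaneous replicate 1 was above both brain libraries and the other two subcutaneous libraries below them. The site means were 31.3 ± 2.17 CPM in brain (SD, n = 2), 12.3 ± 1.30 in liver (n = 3) and 27.2 ± 7.04 in subcutaneous tissue (n = 3). Per 100 cells the means were 28.9, 13.5 and 27.8 UMIs, the same order.

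Myc followed another order and was highest in subcutaneous tumours. The brain libraries held 63 and 61 Myc UMIs, or 2.90 and 1.58 CPM. The liver libraries held 127, 115 and 131 UMIs, or 2.57, 2.40 and 2.83 CPM. The subcutaneous libraries held 261, 354 and 370 UMIs, or 6.26, 5.71 and 7.13 CPM. All 3 subcutaneous libraries were above the other 5, and the liver values fell between those of the 2 brain libraries. The means were 2.24 ± 0.940 CPM in brain (SD, n = 2), 2.60 ± 0.213 in liver (n = 3) and 6.36 ± 0.718 in subcutaneous tissue (n = 3). With so few Myc UMIs, counting error alone gave brain replicate 1 a 95% exact Poisson interval of 2.23 to 3.72 CPM and brain replicate 2 one of 1.21 to 2.02 CPM. These intervals, like all others given here, cover counting error only.

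**Figure D1:**
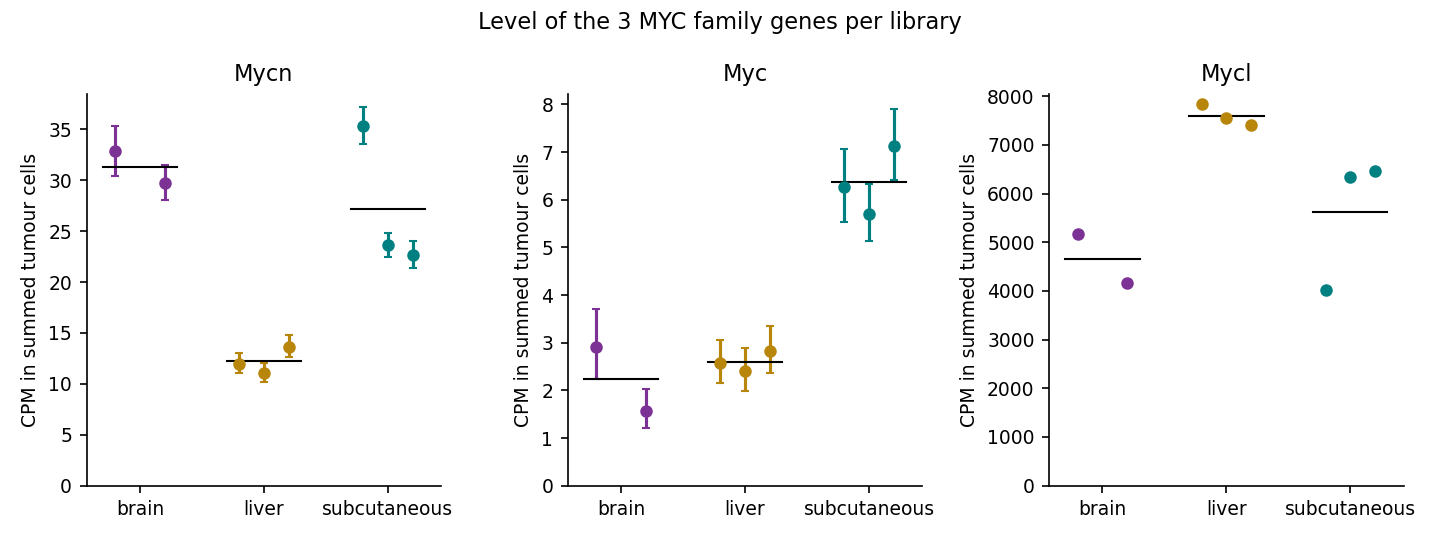
Level of Mycn, Myc and Mycl in the summed tumour cells of each library (y axis, CPM, starting at 0) by site (x axis); points are libraries and horizontal bars site means. The 3 liver libraries are the lowest for Mycn (11.1 to 13.7 CPM) and the 3 subcutaneous libraries the highest for Myc (5.71 to 7.13 CPM).

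Summed counts of all 8 libraries were fitted in 1 model and tested with edgeR's quasi-likelihood test with Benjamini-Hochberg adjustment over 13931 genes at a threshold of 0.05. Mycn was higher in brain than in liver by a log2 fold change of 1.24 (SE 0.187, adjusted p = 0.00312), in a comparison where 21.8% of all genes tested passed (13.2% higher and 8.56% lower in brain). Mycn in liver was below subcutaneous tissue by a log2 fold change of -1.04 (SE 0.170, adjusted p = 0.0212 in edgeR), where 2.83% of all genes passed (0.933% higher and 1.9% lower in liver). Without liver replicate 1 or liver replicate 2 that call was lost, at -1.03 (adjusted p = 0.0920) and -0.97 (0.130). Brain and subcutaneous tissue did not differ beyond their spread in Mycn (log2 fold change 0.20, SE 0.187, adjusted p = 0.507 in edgeR), where 15.1% of all genes passed (8.94% higher and 6.13% lower in brain), but without subcutaneous replicate 1 brain was higher (0.43, adjusted p = 0.0182).

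Myc in brain was below subcutaneous tissue by a log2 fold change of -1.53 (SE 0.257, adjusted p = 0.00758 in edgeR). Myc in liver was below subcutaneous tissue by -1.18 (SE 0.214, adjusted p = 0.0285 in edgeR). The liver call was lost when any 1 of 5 libraries was left out: liver replicates 1 to 3 and subcutaneous replicates 2 and 3 gave adjusted p = 0.109, 0.159, 0.0589, 0.0705 and 0.0859 in edgeR, with log2 fold changes of -1.25 to -1.10. Brain and liver did not differ beyond their spread in Myc (-0.36, SE 0.253, adjusted p = 0.344 in edgeR), and without brain replicate 2 the value was 0.0477.

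Mycl, the family member on which the tumour cell gate partly rests, was ordered opposite to Mycn. It was at 5163 and 4158 CPM in brain, 7838, 7562 and 7400 CPM in liver and 4026, 6341 and 6469 CPM in subcutaneous tissue. Every liver library was above every other library, and Mycl was lower in brain than in liver (log2 fold change -0.82, SE 0.198, adjusted p = 0.0189 in edgeR). The liver difference from subcutaneous tissue did not pass (0.55, SE 0.173, adjusted p = 0.134 in edgeR). With cells gated on eGFP alone, so that Mycl took no part, the Mycn difference between brain and liver was 1.28 (adjusted p = 0.00264 in edgeR) and the Myc difference between brain and subcutaneous tissue -1.50 (0.00823). Max, the shared dimer partner, had means of 63.9 ± 7.75 CPM (brain), 72.2 ± 0.438 CPM (liver) and 84.7 ± 9.39 CPM (subcutaneous tissue), and passed in no comparison. These UMI counts are taken at transcript ends and are not per length, so levels of different genes were not compared. In sums over cells, fewer expressing cells and less RNA per cell cannot be told apart, so single cells were examined next.

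Most cells with either transcript held 1 UMI of it. Mycn gave 7736 UMIs in 5854 of the 34719 tumour cells, with 1 UMI in 4604 of them, 2 in 909 and 3 or more in 341, and at most 24 in a cell. Myc gave 1482 UMIs in 1242 cells, with 1 UMI in 1073, 2 in 121 and 3 or more in 48, and at most 6. Cells with 3 or more UMIs held 16.99% of Mycn UMIs and 11.3% of Myc UMIs. A cell without a UMI is therefore not shown to lack the transcript.

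Tumour cells were thinned at random to 3000 UMIs each so that depth was equal, and 48 to 180 cells of each library were too shallow to use. A Mycn UMI was then found in 10.1% and 8.80% of brain tumour cells, 3.602%, 3.29% and 4.05% of liver tumour cells and 9.97%, 6.57% and 6.94% of subcutaneous tumour cells. A Myc UMI was found in 0.973% and 0.424%, in 0.716%, 0.614% and 0.837%, and in 1.71%, 1.67% and 2.50%, in the same order. Each set of shares kept the order of the summed levels, with liver lowest for Mycn and subcutaneous tissue highest for Myc without overlap. At this depth only 234 of the 2171 cells with Mycn and 31 of the 419 with Myc held 2 or more UMIs. The shares thus largely restate the summed levels and cannot separate fewer expressing cells from less RNA per cell. The 3 sites differed in the Mycn share (exact permutation test of the F statistic over 560 assignments, p = 0.0179, adjusted over 3 such tests 0.0482) and in the Myc share (p = 0.0321, adjusted 0.0482). Between 2 sites the smallest p that an exact permutation test allows here is 0.1, two-sided, so no pair could pass (adjusted over 9 tests, 0.225). Adjusted in the same way, the site test of Mycn missed the threshold without brain replicate 1 or subcutaneous replicate 2 (exact permutation, adjusted p = 0.0857 for each), liver replicate 1 or 2 (0.0571 for each) or subcutaneous replicate 3 (0.129). That of Myc missed it without liver replicate 1 or 2 (exact permutation, adjusted p = 0.0571 for each) or any 1 subcutaneous library (0.129 for each). Both missed it with cells gated on eGFP alone or with the gate at 0.5% (exact permutation, adjusted p = 0.0536 in all 4 cases), and both without hypoxia-led clusters, defined below (0.075 for Mycn and 0.273 for Myc). Unadjusted, these settings gave exact permutation p = 0.0179, 0.0214 and 0.025 for Mycn and 0.0357, 0.0357 and 0.182 for Myc. The tests are adjusted together, so the adjusted value of Mycn also depends on the p of Myc. Without thinning, the mean shares were 21.5%, 11.3% and 20.0% for Mycn and 1.73%, 2.47% and 5.38% for Myc in brain, liver and subcutaneous tissue. Outside the tumour clusters, 0.838% of 358 cells in a microglia-like cluster of the brain libraries (median 4607.5 UMIs) held a Mycn UMI, unthinned. Over all clusters mostly outside the gate this share ran from 0% to 6.67%, with 5.39% in an endothelial-like cluster. Up to 34.8% of the cells of such a cluster were inside the gate. Whether these UMIs came from free RNA was not tested.

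The transcripts of both genes occurred in the same tumour cells more often than the product of their shares gives. After thinning, 68 of 33749 cells held both, 2103 held Mycn and no Myc UMI, 351 held Myc and no Mycn UMI, and 31227 held neither. Cells with both numbered 9 and 2 in brain, 2, 4 and 5 in liver, and 17, 10 and 19 in subcutaneous tissue. The products of the shares, summed over libraries, gave 28.8 cells, a ratio of observed to expected of 2.36 (95% exact Poisson interval 1.83 to 2.99). The ratio was above 1 in 8 of 8 libraries, at 4.06 and 1.34, at 1.91, 4.86 and 3.25, and at 2.51, 1.49 and 2.32. It did not differ between sites beyond its spread (exact permutation p = 0.582). It was above 1 in 7 of 8 libraries at 2000 UMIs per cell, where brain replicate 2 had no cell with both, and at 5000, where that library was at 0.959. Seen from the other side, 6.90% to 40.9% of the cells with a Myc UMI in a library also held a Mycn UMI. The upper value, from 9 of 22 cells of brain replicate 1, was 23.5% (4 of 17) without the haemoglobin-led clusters described below.

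At full depth, 327 cells held both against 219 expected, a ratio of 1.49 (1.34 to 1.66). Deeper cells are more likely to show either gene, so the expected number was also taken within 10 depth groups per library, which gave a ratio of 1.41 (1.26 to 1.57). Taken within depth groups and cell clusters, the expected number was 267 and the ratio 1.22 (1.09 to 1.36), above 1 in 8 of 8 libraries. The library ratios ran from 1.02 to 1.64, and only the interval of liver replicate 2 (1.03 to 2.49) excluded 1. For thinned cells without haemoglobin-led clusters the ratio was 1.88 and above 1 in 7 of 8 libraries, with liver replicate 1 at 0.982 and brain replicate 1 at 2.07. Without Tfap2a-led clusters it was 2.63 and again above 1 in 7 of 8. Leaving out the 5% of cells with the most UMIs, where doublets would be likely, gave 2.34 for thinned cells. At full depth the mean ratio differed between sites (1.79 in brain, 2.08 in liver and 1.33 in subcutaneous tissue, exact permutation p = 0.025) and within depth groups (p = 0.0179). It did not pass for thinned cells, nor within depth groups and clusters (1.32, 1.52 and 1.13, exact permutation p = 0.0714).

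**Figure D2:**
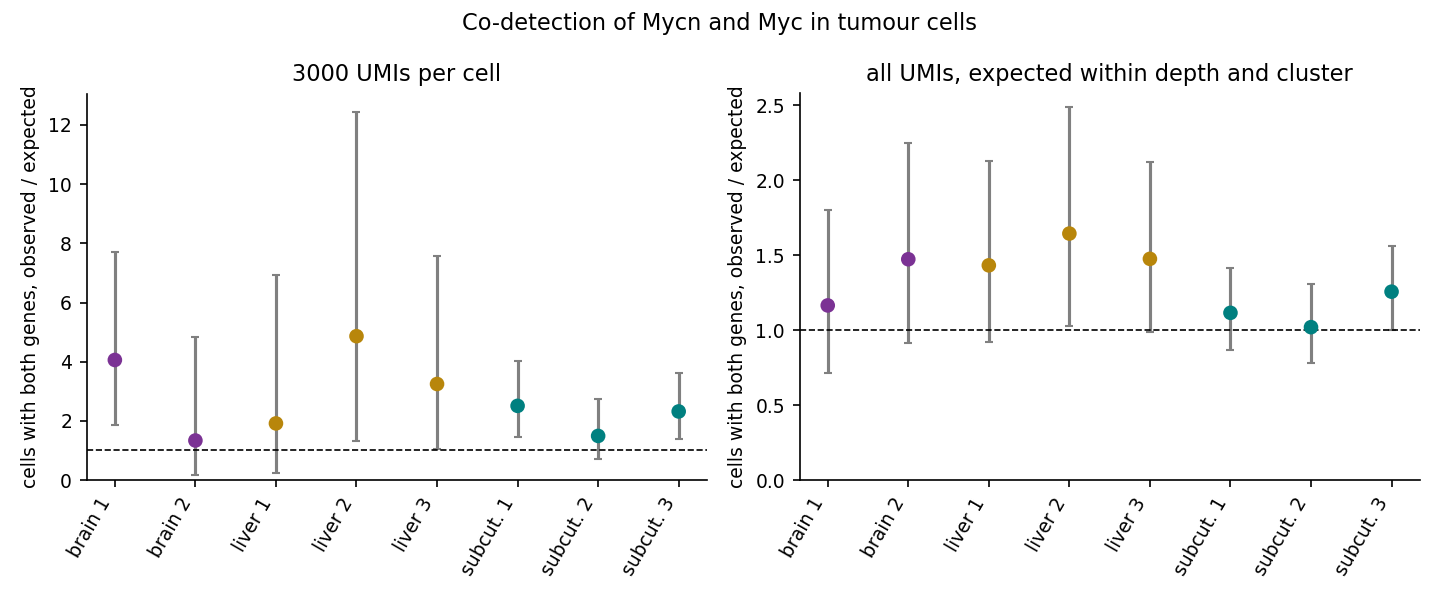
Cells with both a Mycn and a Myc UMI, as the ratio of observed to expected (y axis), for each library (x axis); error bars are 95% exact Poisson intervals and the line marks a ratio of 1. All 8 libraries lie above 1 after thinning to 3000 UMIs, with a wide spread (1.34 to 4.86) because each point rests on 2 to 19 cells.

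All cells past the filters were grouped into 23 clusters without using Mycn or Myc, and each cluster is given by number with its leading genes. Mycn was at 78.02 CPM in cluster 21, led by Islr2, Islr, Shisa8, Ppp1r14c and Fam213b, and at 183 CPM in cluster 9, led by the heat shock genes Hspa1a and Hspb1, Txnip, Hba-a1 and Arrdc3. Cluster 9 had 443 cells with a low median depth of 4703 UMIs, 85.1% of them inside the gate, and also held Myc at 46.7 CPM. Its Mycn level varied between the 3 libraries with 50 or more of its tumour cells, at 87.8 CPM in liver replicate 3 and 107.5 and 425 CPM in subcutaneous replicates 2 and 1, so 1 library with 61 such cells raised it. Myc was at 37.6 CPM in cluster 22, led by Nupr1, Trib3, Selenbp1, P4ha2 and Ero1l, where 667 of 677 cells were subcutaneous and Mycn was at 24.0 CPM. Clusters 13 and 16, led by hypoxia-response genes such as Bnip3, Egln3 and P4ha2, held Myc at 10.2 and 11.8 CPM and Mycn at 25.2 and 34.1 CPM. In cluster 7, led by histone genes and Top2a of dividing cells, Mycn was at 11.6 and Myc at 1.62 CPM. Cluster 14, led by other genes of dividing cells such as Pttg1, Cenpa and Ccnb2, held them at 21.3 and 2.29 CPM. Dividing cells thus had no single Mycn level. Cluster 15, led by haemoglobin genes, had the lowest levels among clusters mostly inside the gate, 2.14 and 0.490 CPM, at a median of 4520 UMIs.

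Host clusters also held Myc. In the microglia-like cluster 18, Myc was at 39.4 CPM (95% exact Poisson interval 31.1 to 49.3) and Mycn at 2.05, with Mycl at 192 CPM against 4026 or more in summed tumour cells. The macrophage-like cluster 5, the endothelial-like cluster 19 and the fibroblast-like cluster 20 held Myc at 12.4, 20.2 and 23.4 CPM and Mycn at 5.93, 10.5 and 8.76 CPM. The gate kept 1.40% of cluster 18 and 34.8% of cluster 19 among the tumour cells. How far host cells inside the gate add to Myc was not tested. With the gate raised to 0.5%, the Myc difference between brain and subcutaneous tissue was -1.50 (adjusted p = 0.00405 in edgeR). That setting does not measure the Myc of host cells.

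**Figure D3:**
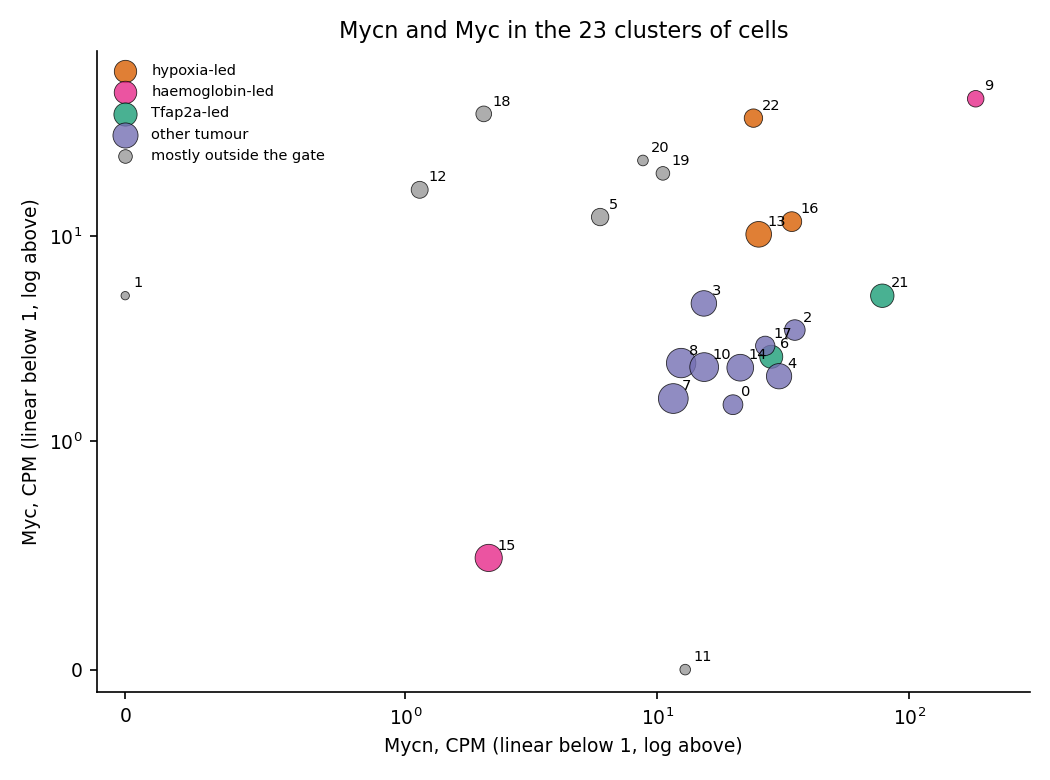
Mycn (x axis, CPM) against Myc (y axis, CPM) in the summed cells of each of 23 clusters; both axes are linear below 1 and logarithmic above, symbol size grows with the number of cells, and colour gives the set of the cluster. Clusters 9 and 21 lie farthest right (183 and 78.02 CPM of Mycn, the first with 87.8 to 425 CPM between libraries), and clusters 9, 18 and 22 lie highest (46.7, 39.4 and 37.6 CPM of Myc).

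A cluster was called hypoxia-led where at least 2 genes of a list of 12 hypoxia-response genes were among its 10 leading genes (clusters 13, 16 and 22), haemoglobin-led where at least 2 haemoglobin genes were (9 and 15), and Tfap2a-led where that transcription factor was (6 and 21). Hypoxia-led clusters held 11.9% of tumour cells, 40.1% of Myc UMIs and 14.8% of Mycn UMIs. In the subcutaneous libraries they held 12.7%, 31.6% and 26.4% of tumour cells and 42.1%, 68.1% and 58.9% of Myc UMIs. In brain they held 1.32% and 1.08% of cells, and in liver 2.11%, 1.65% and 2.27%. Without these clusters Myc passed in neither subcutaneous comparison, at a log2 fold change of -0.76 for brain against subcutaneous tissue (adjusted p = 0.126 in edgeR) and -0.40 for liver against subcutaneous tissue (0.478). The Mycn values without them were 1.28 for brain against liver (adjusted p = 0.00300 in edgeR) and -1.03 for liver against subcutaneous tissue (0.0340), close to those of all tumour cells.

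Tfap2a-led clusters bore on Mycn in subcutaneous replicate 1. They made up 31.8% of the tumour cells of that library and held 48.5% of its Mycn UMIs, against 4.14% and 6.07% of cells and 7.37% and 10.9% of Mycn UMIs in the other two subcutaneous libraries. Without them Mycn was still higher in brain than in liver (1.00, adjusted p = 0.00196 in edgeR) and lower in liver than in subcutaneous tissue (-0.86, 0.00980). In the tumour cells outside all 3 kinds of cluster, Mycn was at 28.9 and 23.4 CPM in brain, 11.4, 11.05 and 12.7 CPM in liver and 18.0, 21.3 and 18.2 CPM in subcutaneous tissue, so the sites did not overlap. Myc in those cells was at 2.36 and 1.27, at 2.21, 2.33 and 2.77, and at 3.30, 2.27 and 3.24 CPM, with subcutaneous replicate 2 inside the liver range.

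**Figure D4:**
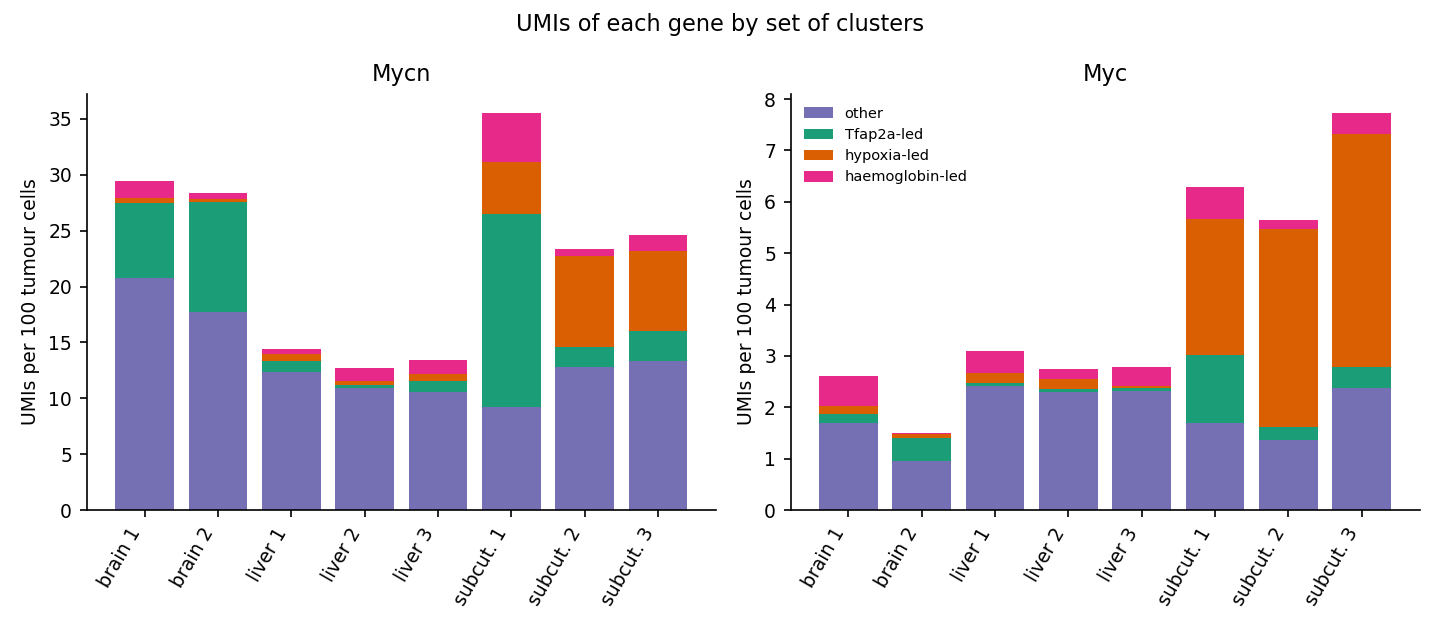
Mycn and Myc UMIs per 100 tumour cells (y axis, starting at 0) in each library (x axis), stacked by set of clusters in colour. The hypoxia-led share of Myc is large in the 3 subcutaneous libraries (42.1% to 68.1% of UMIs) and small elsewhere, and the Tfap2a-led share of Mycn is largest in subcutaneous replicate 1 (48.5%).

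Site differences were also read within clusters. In 6 clusters at least 2 libraries of each site had 50 or more tumour cells. The mean Mycn level of the liver libraries was below that of the brain libraries in 6 of these clusters and below that of the subcutaneous libraries in 5, although all liver libraries lay below all subcutaneous libraries in only 3. Within the dividing cells of cluster 7, for example, Mycn was at 14.4 ± 4.71 CPM in brain (SD, n = 2), 9.11 ± 2.02 in liver (n = 3) and 14.5 ± 1.25 in subcutaneous tissue (n = 3). In cluster 21 it was at 92.6 and 86.2 CPM in the brain libraries, 77.9, 73.2 and 67.8 CPM in the subcutaneous libraries and 38.9 CPM in the 1 liver library with enough cells. Subcutaneous tissue had the highest mean of Myc in 3 of the 6 clusters.

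Within most libraries, both genes were higher where Mycl was low, by a margin that for Mycn varied between libraries. Cells in the lowest quartile of thinned Mycl UMIs held Mycn at 32.0 ± 17.4 CPM (SD over 8 libraries) and those in the highest quartile at 20.1 ± 8.33, higher in the lowest quartile in 7 of 8 libraries. The gap was widest in brain replicate 2 (45.9 against 17.4 CPM) and subcutaneous replicate 1 (61.3 against 23.9). It was almost absent in liver replicate 3 (16.3 against 16.2 CPM) and slightly reversed in liver replicate 2 (11.7 against 12.5). Myc was at 7.76 ± 5.88 and 2.82 ± 1.17 CPM in the same quartiles, again higher in the lowest in 7 of 8. Groups cut at the quartiles of summed hypoxia-list UMIs were unequal in size. In brain replicate 1, for example, 907 of 2262 cells were in the lowest and 302 in the highest group. Mycn had a mean of 21.5 CPM in the lowest and 35.7 in the highest group (higher there in 8 of 8 libraries), and Myc 2.15 and 10.2 (7 of 8). Cells with fewer than 4 UMIs of G2/M genes held Mycn at 26.3 and Myc at 4.73 CPM, and cells with 4 or more held 23.7 and 3.52, in the same direction in 5 and 6 of 8 libraries. These levels per quartile are descriptions, without a test.

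Cells with Mycn and no Myc UMI (Mycn-only) were then set against cells with Myc and no Mycn UMI (Myc-only) within each library, with both genes left out of the table. After thinning there were 219 and 351, 144, 130 and 179, and 380, 391 and 309 Mycn-only cells in the brain, liver and subcutaneous libraries, and 13 and 15, 27, 21 and 33, and 51, 92 and 99 Myc-only cells. In edgeR with the library as a block, 169 of 6670 genes passed (2.53%), 50 higher in Mycn-only (0.75%) and 119 higher in Myc-only cells (1.78%). With RLE in place of TMM scaling the split was 34 and 181. Without hypoxia-led clusters 13 genes passed, 5 and 8, and without the block 3 did, all higher in Myc-only cells. The Myc-only sums rest on few cells, most of them subcutaneous.

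Hypoxia-response genes were higher in Myc-only cells, with 11 of 12 passing and a median log2 fold change (Mycn-only against Myc-only) of -1.003, against 0.02 over all genes tested. They included Car9, a carbonic anhydrase (-2.42), Adm, the peptide hormone adrenomedullin (-2.19), Egln3, an oxygen-sensing hydroxylase (-1.43), and P4ha2, a collagen prolyl hydroxylase (-1.40). With DESeq2 2 of 12 passed, and without hypoxia-led clusters 0 of 8 list genes tested in edgeR did. Among the MYC growth targets, enzymes of glucose use were also higher in Myc-only cells, namely Hk2 (-1.78), Eno1 (-0.50), Ldha (-0.37) and Pkm (-0.25), with the amino acid transporter subunit Slc3a2 (-0.48), 5 of 22 growth targets in all and none in the other direction. Of 23 ribosome biogenesis targets tested, 0 passed. Whether the growth target values relate to Myc or to hypoxia was not tested.

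Another 7 genes were named because they passed and were higher in Myc-only cells in 8 of 8 libraries. Hspa5, the chaperone of the endoplasmic reticulum, was at 564 and 311 CPM in Myc-only cells of the brain libraries against 248 and 284 CPM in Mycn-only cells. In liver Hspa5 was at 259, 381 and 566 CPM against 229, 328 and 520, the smallest gap of the 3 sites (log2 fold change -0.16). In subcutaneous tissue Hspa5 was at 1079, 1475 and 1351 CPM against 390, 689 and 623. Its log2 fold change was -0.88 (SE 0.0968, adjusted p = 1.14e-15 in edgeR), and its gap was wide in every subcutaneous library. Atf3, a stress-induced transcription factor, differed by -1.22 (SE 0.165, adjusted p = 1.12e-10 in edgeR). Krt18, a keratin of simple epithelia, differed by -0.85, the lipid kinase Chka by -0.79 and Mthfd2, a mitochondrial folate enzyme, by -0.37. The ribosomal protein genes Rpl23 (-0.28) and Rpl12 (-0.25) have many near-identical pseudogenes, so their values are uncertain.

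In the other direction, Islr2, a membrane protein gene and the leading gene of cluster 21, was at 25.7 ± 22.5 CPM in Mycn-only and 4.14 ± 9.03 in Myc-only cells (SD, n = 8; log2 fold change 1.98, SE 0.522, adjusted p = 0.0104 in edgeR). Islr2 was at 0 in the Myc-only sums of all 5 brain and liver libraries, which held only 13 to 33 cells each. In the Mycn-only sums, of 130 to 351 cells, Islr2 was at 27.4 and 53.2 CPM in brain and 4.63, 2.57 and 24.2 CPM in liver. Sums of so few cells may miss a transcript at such levels. A value of 0 there does not show that Islr2 was absent, and the sign in these 5 libraries carries little weight. Cdc20, an activator of the anaphase-promoting complex, was at 207 ± 62.4 against 109 ± 43.6 CPM (0.73, adjusted p = 0.000187 in edgeR). Ube2c, the ubiquitin-conjugating enzyme of that complex, was at 237 ± 53.7 against 154 ± 75.3 CPM (0.71, adjusted p = 7.29e-05 in edgeR). With Cenpa and Birc5, 4 of 19 G2/M genes passed, all higher in Mycn-only cells. The other named genes higher in Mycn-only cells in 8 of 8 libraries were Lrpprc (1.05), Calml3 (0.83), Ppa1 (0.62), Txnrd1 (0.49), Nfix (0.45), Gdpd1 (0.43), Dynll1 (0.39), Crip2 (0.36) and Atp5g2 (0.36). Their signs rest on the same few Myc-only cells, and Lrpprc was at 0 in that sum of liver replicate 3. With 1 library left out, Calml3 still passed in 3 of 8 fits and Gdpd1 in 2 of 8. Lrpprc and Nfix passed in 8 of 8, and the others in 4 to 7. Mycl did not pass between the classes (0.15, adjusted p = 0.318 in edgeR).

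Each class was also set against cells with neither UMI, comparisons chosen after the data had been seen and sharing the cells with neither. In edgeR, 1196 of 11581 genes passed for Mycn-only cells (10.3%), with 459 higher (3.96%) and 737 lower (6.36%), and 873 of 11565 for Myc-only cells (7.55%), with 218 higher (1.88%) and 655 lower (5.66%). All 12 hypoxia genes were higher in Myc-only cells, with a median of 1.20 against -0.12 over all genes, and 3 of 12 were higher in Mycn-only cells (Ddit4 at 0.65, P4ha1 and Ankrd37). G2/M genes were lower in both classes, 10 of 20 in Myc-only and 6 of 20 in Mycn-only cells, with Ube2c at -1.16 and -0.38. Mycl was lower in both, at -0.44 (SE 0.0625, adjusted p = 9.28e-10 in edgeR) in Myc-only and -0.17 (SE 0.0318, adjusted p = 0.000161) in Mycn-only cells. Without hypoxia-led clusters, 1 of 10 hypoxia genes was higher and 6 of 20 G2/M genes were lower in Myc-only cells.

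Mycn-only cells had more RNA of Tfap2a (log2 fold change 0.96, SE 0.0894, adjusted p = 9.46e-17 in edgeR), of Islr2 (1.12) and of the lung and endoderm factor Foxa2 (0.40), and less of the tight junction gene Cldn7 (-0.70). Of the MYC targets of ribosome biogenesis, 2 of 25 were higher in Mycn-only cells (Nop58 at 0.20 and Nop56 at 0.17, box C/D snoRNP proteins) and 2 lower (Npm1 at -0.16 and Ncl at -0.11, nucleolar proteins). In Myc-only cells 0 of 25 passed. Of 24 growth targets, 1 was higher and 5 lower in Mycn-only cells. In Myc-only cells 4 were higher and 4 lower, with Hk2, the glycolytic hexokinase, at 2.24. Myc-only cells were also higher in the epithelial factor Elf3 (1.29) and in Krt18 (0.44).

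**Figure D5:**
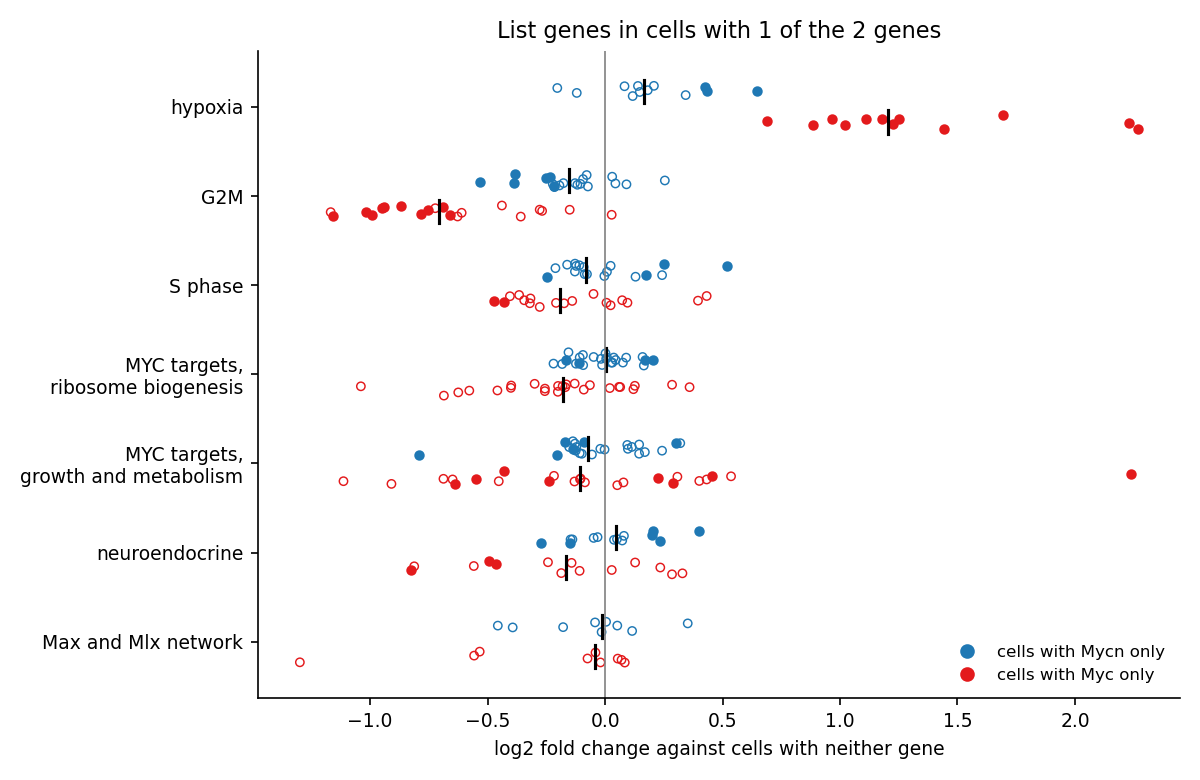
Log2 fold change of each list gene (x axis) against cells with neither UMI, by gene list (y axis), in Mycn-only cells (blue) and Myc-only cells (red); each point is a gene tested. The hypoxia genes of Myc-only cells lie to the right (median 1.20) and their G2/M genes to the left (median -0.71).

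The MYC network and target genes were read between sites in the same test, in which 21.8% of all genes passed for brain against liver, 15.1% for brain against subcutaneous tissue and 2.83% for liver against subcutaneous tissue. Of 9 Max and Mlx network genes, brain against liver had Mxd1, a repressor that binds Max, higher (log2 fold change 0.82, adjusted p = 0.0151 in edgeR) and Mlxip, a glucose-sensing partner of Mlx, lower (-1.13, adjusted p = 0.0110). Mxd1 was at 14.2 and 11.6 CPM in brain and at 6.58, 5.83 and 7.90 CPM in liver. In brain against subcutaneous tissue Mxi1, another Max partner, was lower (-0.51), and in liver against subcutaneous tissue 0 passed. Mnt and Mga, also Max partners, passed in no comparison, with values of -0.32 to 0.03. Of 12 cofactors Kat2a, a histone acetyltransferase, was lower in brain than in liver (-0.33), as was Stub1, a ubiquitin ligase, of 10 turnover genes (-0.31), and none passed in the other 2 comparisons.

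Of 25 ribosome biogenesis targets, Bysl was lower in brain than in liver (-0.48), and 0 passed in either other comparison. Their medians were -0.25 for brain against liver, -0.17 for brain against subcutaneous tissue and 0.09 for liver against subcutaneous tissue, with 0.00, 0.00 and -0.01 over all genes. Of 25 growth targets, 5 passed in brain against liver, 8 in brain against subcutaneous tissue and 3 in liver against subcutaneous tissue, where 21.8%, 15.1% and 2.83% of all genes did. The growth target count is thus near the share of all genes in the first comparison and above it in the other 2. The ribosome biogenesis counts of 1, 0 and 0 are below it. Whether the growth target counts relate to MYC or to the hypoxia differences given below was not tested. Hk2 was at 2.40 and 1.83 CPM in brain, 0.709, 0.627 and 0.648 CPM in liver and 10.6, 6.83 and 6.05 CPM in subcutaneous tissue. Its order was thus subcutaneous tissue, brain, liver, without overlap, and it passed in all 3 comparisons (1.55, -1.90 and -3.44, edgeR). Eno1, Ldha and Pkm, glycolytic enzymes, were lower in brain than at either other site (-1.05, -0.81 and -0.67 against liver, and -1.56, -1.24 and -0.98 against subcutaneous tissue). Mcm5, of the replicative helicase, was higher in brain (1.13 and 1.01), and Tert, the telomerase catalytic subunit, was higher in liver than in subcutaneous tissue (0.78). Of 12 hypoxia genes, 11 were lower in brain than in subcutaneous tissue, where 6.13% of all genes were lower, and 9 were lower in liver than in subcutaneous tissue, where 1.9% were.

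Of the genes near the 2 loci, Ddx1, an RNA helicase gene 307 kb from the start of Mycn, had log2 fold changes of -0.25, -0.18 and 0.07 and passed in no comparison. The calcium sensor gene Vsnl1, also listed as a neighbour of Mycn, passed in both brain comparisons at very low levels, 1.24 and 0.233 CPM in brain and 0 in the other 6 libraries. Near Myc, Asap1 was higher in brain than in liver (0.99, adjusted p = 0.0131 in edgeR), where Myc did not pass. For each locus 4 listed neighbours were tested. Of these, 1 near Mycn passed in each brain comparison and 1 near Myc in brain against liver, where 15.1% to 21.8% of all genes passed. Such counts are near the share of all genes and say little about either locus.

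Over the 8 libraries, the genes whose log2(CPM + 1) followed Mycn most closely were Fam219a (Pearson's r 0.993), Tle1 (0.983), Mocs2 (0.982), Zeb2 (0.982) and Dbt (0.982), of 7941 genes with at least 10 CPM. Zeb2, a transcription factor of neural and mesenchymal cells, had site means of 23.2, 7.59 and 21.7 CPM in brain, liver and subcutaneous tissue. Those closest to Myc were Sema4c (0.985), Gtf2h1 (0.970), Eif1 (0.969), 1810032O08Rik (0.968) and Mob3a (0.962), and of these Gtf2h1, a subunit of the transcription factor TFIIH, was at 40.8, 43.1 and 56.6 CPM. Mycl had r of -0.903 with Mycn and -0.0742 with Myc. These correlations describe 8 libraries that share 3 site means, and a search over many genes finds high values, so they carry no test.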

How the data were processed

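For each library the authors deposited a sparse table of whole-number UMI counts by gene and cell, in a format of version 3.0.0 per the file headers. The submitters' processing notes name Cell Ranger, STAR and mm10. The lowest deposited cell held 501 UMIs. Cells under 500 genes or over 10% mitochondrial UMIs were dropped, and no doublet caller was run. Genes were placed by identifier on GENCODE M21, GRCm38 (21952 of 22056, 99.5%). Of the 2 genes, Mycn matched RefSeq's promoter table.

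Tumour cells were gated on eGFP plus Mycl UMIs, and their counts were summed per library. R 4.3.3 with edgeR 4.0.16 (TMM, filterByExpr, robust quasi-likelihood fits) gave 5 residual degrees of freedom and a biological coefficient of variation of 17.9%. Genes not tested held 0.0133% of UMIs. Cells were thinned to 3000 UMIs for shares, co-detection and cell classes. Clusters came from scanpy 1.11.5 and igraph 0.11.9 (2000 variable genes, 30 components, 15 neighbours, Leiden resolution 1). A cluster's host name needed 3 markers found in at least 20% of its cells. Exact permutations used scipy 1.17.1 under Python 3.11.15, figures matplotlib 3.10.9.

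The 2 genes, the lists and the tests were chosen with earlier results of these data known. Named class genes were the up to 12 farthest from 0 in each direction, by fold change, of those that passed, averaged 10 CPM or more and had the same sign in all 8 libraries. List genes were named from those past the threshold, at most 8 per list and comparison, with Mycl, Max, Mnt, Mga and Ddx1 whatever their result. Likeness was Pearson's r of log2(CPM + 1), 5 genes each. Alternatives covered DESeq2 1.42.0, RLE factors, filters, gates, thinning depths, a replicate block, fits of the sites compared and leaving out each library. Leaving out cluster sets, taking the expected number within depth groups and comparing classes with cells of neither gene were chosen after seeing the data.

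On simulated counts with 200 genes changed by a log2 fold change of 1.5 in brain, 98.5% were recovered in brain against liver (4.37% false, 13653 genes) and 98.5% in brain against subcutaneous tissue (1.99% false). In liver against subcutaneous tissue, where no gene was changed, 1 was called. The class test recovered 99.5% of 200 genes at a log2 fold change of 2 (6630 genes). Only genes with more than 200 counts were changed, and all genes were given the same preset dispersion. Most class genes named above had smaller fold changes, so these rates do not carry over to them.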

Additional observations from a re-analysis of the deposited data

Results flagged for a closer look

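The difference between Mycn-only and Myc-only cells itself differed between the 3 sites in 43 of 6670 genes (0.645%), by a test of the interaction of class and site in edgeR, and 554 genes had an unadjusted p under 0.05. In 35 of the 43 the log2 fold change was lowest in subcutaneous tissue and in 6 it was highest there. Aldoa, a glycolytic enzyme, had values of 0.35 in brain, 0.39 in liver and -1.004 in subcutaneous tissue (adjusted p = 2.24e-14 in edgeR). Nupr1, a stress-induced nuclear protein, had 0.46, -1.31 and -2.82, and Hspa5 had -0.53, -0.16 and -1.26. Ldha had -0.06, 0.05 and -0.74. These genes were named after their values were seen. Hypoxia-led clusters held 12.7% to 31.6% of tumour cells in the subcutaneous libraries and 1.08% to 2.27% elsewhere, and their part in these values was not tested.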

How the results depend on the processing

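The number of libraries (2, 3 and 3) and the low counts limit these results: Myc rested on 61 to 370 UMIs per library and the Myc-only class on 13 to 99 cells, and no smallest detectable difference was measured for either gene. Among settings that kept all libraries, the 3 Mycn comparisons kept direction and side of the threshold in 12 of 12 each, and those of Myc in 12, 11 and 11. Leaving out 1 library gave log2 fold changes for Mycn of 1.16 to 1.31 (brain against liver), 0.10 to 0.43 (brain against subcutaneous tissue) and -1.16 to -0.81 (liver against subcutaneous tissue), and for Myc of -0.81 to 0.0477, -1.996 to -1.14 and -1.25 to -1.10. The reversal to 0.0477, without brain replicate 2, had an adjusted p of 0.911 in edgeR. Without hypoxia-led clusters Myc was at -0.76 and -0.40 in the subcutaneous comparisons, and the difference of its cell share (subcutaneous tissue less the mean of the other sites, 1.25 percentage points) was 0.407 (exact permutation p = 0.182).

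Counting cells with at least 2 UMIs gave 0.119 points for Myc (exact permutation p = 0.0821) and -0.92 for Mycn (liver less the others, -4.98 in the main result, p = 0.143). Leaving out 1 library gave -5.30 to -4.45 for Mycn and 0.979 to 1.39 for Myc. The mean co-detection ratio over libraries, 2.72, was 1.73 without thinning (exact permutation p between sites 0.025) and 1.54 within depth groups (p = 0.0179), 1.32 within depth groups and clusters (p = 0.0714), and 2.41 to 2.91 without 1 library. Of 83 MYC network and target genes, 11, 9 and 3 passed in the 3 comparisons in the order above, where 21.8%, 15.1% and 2.83% of all genes did. DESeq2 gave 18, 14 and 5, the fit of only the sites compared 19 for the first, the 0.5% gate 14 for the second, and the third fell to 1 without hypoxia-led clusters. Leaving out 1 library gave 2 to 26, 2 to 27 and 1 to 8.

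The split of 50 and 119 genes between Mycn-only and Myc-only cells became 13 and 59 with DESeq2, 34 and 181 with RLE factors, 104 and 86 with no filter, 247 and 359 without thinning, 5 and 8 without hypoxia-led clusters, and 16 to 63 and 45 to 140 without 1 library. For Mycn-only against neither, 459 and 737 became 1033 and 1631 without thinning and 181 and 395 without haemoglobin-led clusters, and 263 to 403 and 614 to 811 without 1 library. For Myc-only against neither, 218 and 655 became 562 and 1034 without thinning and 47 and 383 without hypoxia-led clusters, and 108 to 237 and 348 to 580 without 1 library. The causes were not tested. The 19 named class genes lost significance in 93 of 315 gene and setting pairs. Their direction was largely fixed by the choice of genes with the same sign in every library. Classes of at least 2 UMIs were not run, since some libraries had no such Myc-only cell.

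With the replicate number as a block, Mycn was at 1.21 and -1.02 and Myc at -1.50 and -1.18 in the comparisons called, all still past the threshold (adjusted p in edgeR 0.00914, 0.0308, 0.0173 and 0.0410), and 1 network or target gene passed between liver and subcutaneous tissue. The class comparison without the library block gave 0 and 3 genes. Deviations from the site mean correlated at -0.235 to 0.241 between same-numbered libraries of different sites and at -0.252 to 0.275 between differently numbered ones. With so few libraries per site the deviations are tied to each other, so this check cannot show whether the numbers pair the samples.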
